A study of Mus musculus with 6 samples.

Results

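A set of 10 genes of autophagy and mitophagy was followed in activated group 2 innate lymphoid cells (ILC2s) cultured with melatonin or with vehicle. They are *Ulk1*, *Becn1*, *Wipi1*, *Atg5*, *Atg7*, *Map1lc3a*, *Map1lc3b*, *Gabarapl1*, *Gabarapl2* and *Pink1*. They were chosen by name, as members of the pathway, and all 10 are among the 16381 genes of the expression table. The cells came from the lungs of female BALB/cJ mice aged 6 to 8 weeks. The mice had received 0.5 µg of IL-33 per day by the nose for 3 days, which activates ILC2s, so the vehicle samples were activated as well. Lineage-negative ST2+ CD127+ cells were sorted and cultured for 24 h with 250 µM melatonin or with DMSO, the solvent, and 3 samples of each group were sequenced as bulk RNA. The question of the comparison is which transcripts differ between melatonin-treated and vehicle-treated ILC2s.

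Autophagy is the process by which a cell encloses part of its own cytoplasm in a membrane vesicle, the autophagosome, and breaks it down in the lysosome. The ULK1 kinase complex starts it, a lipid kinase complex that holds Beclin 1 marks the membrane, WIPI proteins read that mark, and the ATG5 and ATG7 machinery attaches proteins of the ATG8 family (LC3 and GABARAP) to the growing membrane. Mitophagy is the same process directed at mitochondria, and PINK1 is the kinase that marks damaged ones. The messenger RNA measured here is a level of transcript, and neither the proteins nor the flow of material through the pathway was measured.

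The libraries held between 17056267 and 20511700 estimated counts. Values are normalized counts, which the authors made from estimated counts with one size factor for each sample, and they are given for replicates 1, 2 and 3 in turn. The sort markers fit the label: *Gata3* ranged from 17890 to 24588 *Il1rl1*, the gene of ST2, from 7698 to 16787 and *Il7r*, the gene of CD127, from 699.7 to 2102, the last being lower in every melatonin sample than in any vehicle sample. All 10 ILC2 markers were listed, of which 2 were higher and 6 lower with melatonin, beside 24.5% higher and 24.7% lower of all genes tested. Their summed level was between 132598 and 142847 in vehicle and between 100156 and 106908 with melatonin. Most of that difference was *Il5*: the other 9 markers summed to between 53752 and 57052 in vehicle and between 48373 and 65076 with melatonin, which overlap. That sum is mostly made of the abundant markers, and several single markers in it fell without overlap between groups. Mean normalized counts went from 6799 to 1518 in *Klrg1*, 1876 to 409 in *Il13*, 1831 to 571 in *Areg* and 389 to 53.7 in *Thy1*. *Il7r* was also called lower, *Il1rl1* and *Rora* were called higher, and *Gata3* and *Ptprc* were not called. Several marker lists of other cells were also lower with melatonin: the summed level of 7 of 8 listed macrophage and dendritic cell markers went from between 1452 and 1649 to between 371 and 857, and that of 3 of 7 listed T cell markers from 1203 to 1336 down to 458 to 868, while *Cd4*, *Cd5*, *Cd8a* and *Cd8b1* were not listed. The 5 NK cell markers summed to between 263 and 343 in vehicle and between 24.1 and 36.1 with melatonin. Of the epithelial and stromal markers listed, 5 of 6 were lower, beside the same 24.7% of all genes tested, and 1, *Epcam*, was higher, from between 623 and 745 to between 1016 and 1229.8 (limma adjusted p = 0.00107). The lineage antibodies of the sort, against CD3, CD4, CD5, CD335, CD11b, CD11c and others, are meant to remove T, NK and myeloid cells. The part of these cells in the results that follow was not tested, and in bulk samples fewer cells of a type and less RNA per cell cannot be told apart. Genes at 0 numbered between 270 and 335 in the vehicle libraries and between 515 and 741 in the melatonin libraries, and their part in the results was not tested either. Melatonin replicate 1 stood apart from the other melatonin libraries, at a chi-square per degree of freedom of 29.0 and 37.3 against 13.6 between those. Melatonin replicates 2 and 3 held no Y-linked transcripts, while the other 4 libraries did, although the mice were given as female. All 3 vehicle libraries held these transcripts, but only replicate 1 of the melatonin libraries did, so this difference goes partly with treatment. No gene of the 10 lies on a sex chromosome, but this does not separate treatment from the sex or source of the cells. The part of that difference in the results was not tested. Log2 fold changes were also computed in the 4 libraries with Y-linked transcripts alone. No test was made there, since melatonin replicate 1, which stood apart, is the only melatonin library left. The libraries of a group carry neighbouring numbers, so treatment and library batch cannot be told apart. Nothing states that the replicates came from separate animals or cultures, so the p-values measure only the spread between these samples.

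With melatonin, 8 of the 10 genes rose, none fell, and *Wipi1* and *Atg7* did not pass the test. Calls are from limma with Benjamini-Hochberg adjustment over the 14419 genes tested, at an adjusted p under 0.05. Of all genes tested, 24.5% were higher and 24.7% lower by the same rule, 49.2% in either direction. The median log2 fold change of the 10 genes was 0.57, against −0.00 over all genes tested. In 9 of the 10 genes, every melatonin sample lay above every vehicle sample, which was so for 30.0% of all genes tested, and the reverse for 30.3%. All 10 genes passed the filter on low values. *Ulk1* and *Pink1* changed most, by 3.12-fold and 2.86-fold, and the other called genes rose between 1.25-fold and 1.81-fold. In the 4 libraries with Y-linked transcripts, where melatonin replicate 1 is the only melatonin sample, the log2 fold changes of the 10 genes were between 0.35 and 2.00.

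**Figure D1:**
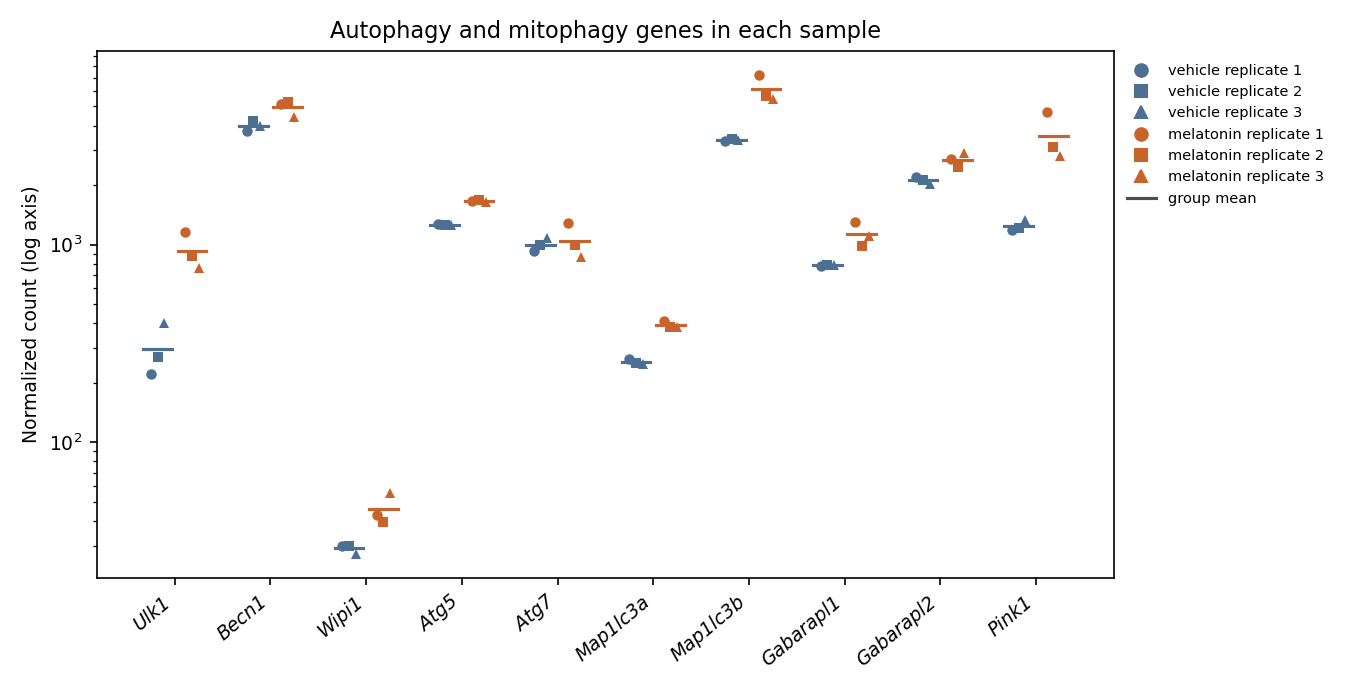
Normalized count (log axis) of each of the 10 genes in the 3 vehicle (blue) and 3 melatonin (orange) samples, with the group mean as a line and the replicate number as the symbol. The groups are apart in every gene but *Atg7*, and *Ulk1* and *Pink1* show the widest gaps.

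Among the genes that start autophagy, *Ulk1* changed most. It encodes the kinase that receives signals of nutrient and energy state, and lies at chr5:110931496-110957995 on the minus strand of GRCm39 (ENSMUSG00000029512). Its normalized counts were 220.3, 271 and 402 in vehicle and 1159.8, 871 and 759 with melatonin. The lowest melatonin sample stood above the highest vehicle sample, and both groups spread widely, with SDs of 93.7 and 207. The difference on the log2 scale was 1.66 with a standard error of 0.227 (limma adjusted p = 0.000559), and leaving out any one sample gave values between 1.47 and 1.90. Among the 9989 genes that averaged 100 normalized counts or more, the 3 that followed *Ulk1* most closely were *Rab6a* (Pearson r = 0.9996 over the 6 samples on the log2 scale), *Vezf1* (r = 0.9994) and *Zcchc24* (r = 0.998). They share with *Ulk1* the order of all 6 samples, and the largest rise of the 3, in *Zcchc24*, was a log2 fold change of 1.41.

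*Becn1* encodes Beclin 1, the scaffold of the class III phosphatidylinositol 3-kinase complex (chr11:101176769-101193122, minus strand, ENSMUSG00000035086). Vehicle samples had normalized counts of 3756, 4199 and 3961 and melatonin samples 5143, 5258 and 4438. The groups did not overlap, but the lowest melatonin value, in replicate 3, was close to the highest vehicle value. Its log2 fold change was 0.31 with a standard error of 0.089 (limma adjusted p = 0.0177). This is the least firm of the 8 calls. The adjusted p was 0.0752 without vehicle replicate 1, 0.0555 without vehicle replicate 3 and 0.0614 without melatonin replicate 2, and over all alternatives it ranged from 0.00451 to 0.0821.

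*Wipi1* encodes a protein that binds the lipid made by that complex (chr11:109464156-109502793, minus strand, ENSMUSG00000041895). It was the scarcest of the 10, with normalized counts of 29.9, 30.0 and 27.3 in vehicle and 43.0, 39.3 and 55.3 with melatonin. Every melatonin sample was above every vehicle sample. A log2 fold change of 0.63 had a 95% interval of 0.06 to 1.20 and did not pass after adjustment (limma adjusted p = 0.0656). Its smallest estimated count in a sample was 26, the smallest of the 10 genes.

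The conjugation machinery was represented by 2 genes, of which 1 was called; the difference between their changes was not tested. *Atg5* encodes the protein that, joined to ATG12, directs LC3 to the membrane (chr10:44142076-44240308, plus strand, ENSMUSG00000038160). In vehicle it had 1268, 1251 and 1258 normalized counts, and with melatonin 1671, 1676 and 1649. These were the tightest groups of the 10 genes relative to their means, and they lay far apart. This was a log2 fold change of 0.40 with a standard error of 0.0721 (limma adjusted p = 0.0021), and it stayed between 0.40 and 0.41 whichever sample was left out.

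*Atg7* encodes the enzyme that activates both ATG12 and the ATG8 proteins (chr6:114620044-114837576, plus strand, ENSMUSG00000030314). The vehicle samples had 923, 999 and 1079 normalized counts and the melatonin samples 1285, 991 and 869. The melatonin samples surrounded the vehicle samples, with replicate 1 above all of them and replicate 3 below all of them. On the log2 scale the difference was 0.05 with a 95% interval of −0.27 to 0.37 (limma adjusted p = 0.784), which leaves room for a change of the size seen in *Becn1*. Its direction rested on single samples: it was −0.11 without melatonin replicate 1 and −0.01 without vehicle replicate 1. With melatonin replicate 1 as the only melatonin sample, in the 4 libraries with Y-linked transcripts, it was 0.36.

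**Figure D2:**
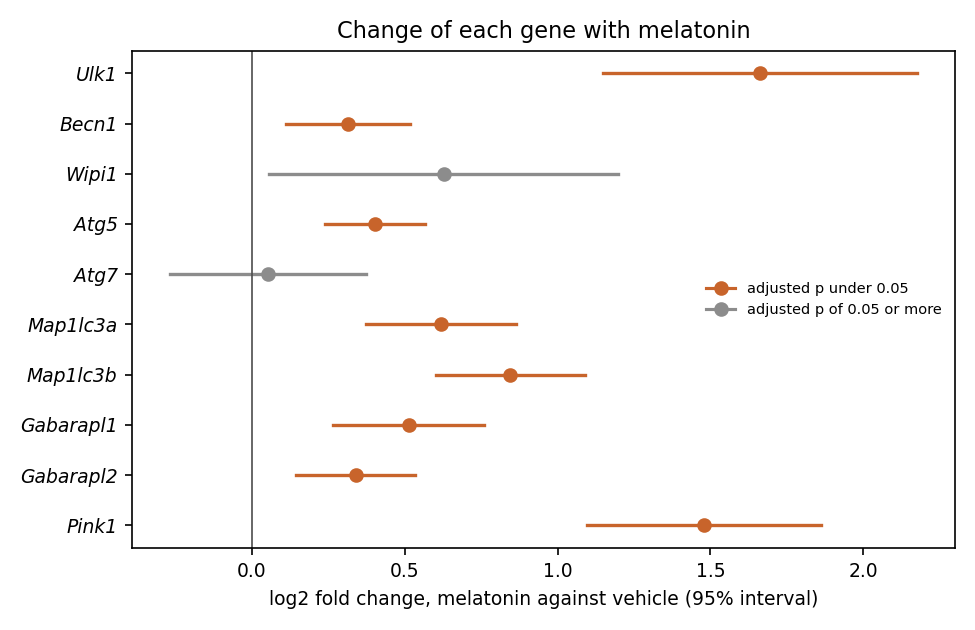
Change of each gene on the log2 scale, melatonin against vehicle, with its 95% interval from limma; orange marks an adjusted p under 0.05 and grey the rest. The intervals of *Ulk1* and *Pink1* lie above 1, and that of *Atg7* spans 0.

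The ATG8 family is what the conjugation machinery attaches to the membrane. In mouse, 4 of the 10 genes and *Gabarap* make up the 5 genes considered here. Each protein is cut by an ATG4 protease behind a glycine near its end, and this glycine is what is joined to the lipid. The last 60 coding bases of the 5 transcripts, stop codon included, are shown because they hold that codon (in capitals), read from GRCm39 on the plus strand:
Map1lc3a, chr2:155119498-155119557: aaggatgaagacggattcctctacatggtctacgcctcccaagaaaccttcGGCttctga
Map1lc3b, chr8:122323450-122323509: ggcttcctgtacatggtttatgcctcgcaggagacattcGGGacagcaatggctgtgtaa
Gabarap, chr11:69885291-69885350: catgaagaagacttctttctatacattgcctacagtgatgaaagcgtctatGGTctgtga
Gabarapl1, chr6:129518071-129518130: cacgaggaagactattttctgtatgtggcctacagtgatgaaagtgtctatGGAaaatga
Gabarapl2, chr8:112678978-112679037: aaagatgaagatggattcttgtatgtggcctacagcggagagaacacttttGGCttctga

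The codon is followed by 1 further codon before the stop in 4 of the genes and by 5 in *Map1lc3b*. Over the whole coding sequence, *Map1lc3a* and *Map1lc3b* were 76.5% identical and *Gabarap* and *Gabarapl1* 74.9%, and the other pairs were between 51.4% and 63.8% identical. The longest identical run of bases in any pair of these coding sequences, at any position in either, was 17. The rest of the transcripts was not compared. Copies of these genes elsewhere in the genome were not examined.

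*Map1lc3b*, whose product LC3B is the usual marker of autophagosomes, lies in the LC3 branch (chr8:122317100-122325499, plus strand, ENSMUSG00000031812). Its normalized counts were 3357, 3408 and 3373 in vehicle and 7241, 5640.4 and 5478 with melatonin. The vehicle samples were nearly equal, and melatonin replicate 1 stood above the other two melatonin samples. It had a log2 fold change of 0.84 with a standard error of 0.108 (limma adjusted p = 0.000416). *Map1lc3a*, which encodes the related LC3A, had 265, 252 and 249.7 in vehicle and 411, 385 and 384 with melatonin (chr2:155118217-155119998, plus strand, ENSMUSG00000027602). Its groups were tight and well apart, with a log2 fold change of 0.62 and a standard error of 0.108 (limma adjusted p = 0.00184).

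The GABARAP branch is needed in later steps of autophagosome formation. *Gabarapl1* had normalized counts of 776, 791 and 792 in vehicle and 1296, 987 and 1108 with melatonin (chr6:129509725-129520544, plus strand, ENSMUSG00000030161). All melatonin samples were higher, and replicate 1 was again the highest. Its log2 fold change was 0.51 with a standard error of 0.109 (limma adjusted p = 0.00481). *Gabarapl2* had 2208, 2124 and 2037 in vehicle and 2702, 2458 and 2917 with melatonin (chr8:112667322-112682011, plus strand, ENSMUSG00000031950). Here replicate 3 was the highest of the melatonin samples, and the groups did not overlap. Its log2 fold change was 0.34 with a standard error of 0.086 (limma adjusted p = 0.0108).

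*Gabarap* itself, which is not one of the 10 genes, went the other way. Its normalized counts were 5287, 5065 and 4859.9 in vehicle and 4221, 3841 and 4610.2 with melatonin, a log2 fold change of −0.27 with a standard error of 0.0863 (limma adjusted p = 0.0303). Every melatonin sample was lower than every vehicle sample. The call was lost without any one of the vehicle samples or melatonin replicate 2, at adjusted p between 0.0549 and 0.111, and in 6 other alternatives, such as quantile normalization (log2 fold change −0.17), with the direction the same in all of them. Over all alternatives its adjusted p ranged from 0.00782 to 0.151.

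Since the 5 genes moved unequally, their make-up was computed within each sample, where the scaling between samples has no effect. Each gene's normalized count per kilobase of transcript was divided by the sum over the 5. *Map1lc3b* made up 21.8% ± 0.669 (SD, n = 3) of the sum in vehicle and 32.7% ± 3.53 with melatonin. *Gabarap* made up 46.9% ± 0.668 in vehicle and 32.5% ± 2.45 with melatonin. It was thus the main transcript of the family in every vehicle sample, whereas with melatonin *Map1lc3b* was ahead in replicates 1 and 2 and *Gabarap* in replicate 3. This order depends on the transcript lengths: without length correction *Map1lc3b* was ahead in every melatonin sample and *Gabarap* in every vehicle sample, and with Ensembl canonical lengths *Map1lc3b* was ahead in all 6 samples. The shares of *Map1lc3a*, from 3.75% to 4.80%, and *Gabarapl1*, from 7.06% to 8.39%, also had no overlap between groups, and that of *Gabarapl2* did, from 20.5% to 21.6%. The smallest p that a two-sided exact permutation test can give with 3 samples per group is 0.1, which 4 of the 5 genes reached (adjusted p = 0.125 over the 5), and *Gabarapl2* had p = 0.4. The summed level of the 5 genes per kilobase was 6127 ± 171 in vehicle and 7379 ± 596 with melatonin, 1.20-fold higher. The changes in share of *Map1lc3a*, *Gabarapl1* and *Gabarapl2*, which were 1.05, 1.33 and 1.12 percentage points, became 0.428, 0.191 and −1.10 with other annotated transcript lengths.

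**Figure D3:**
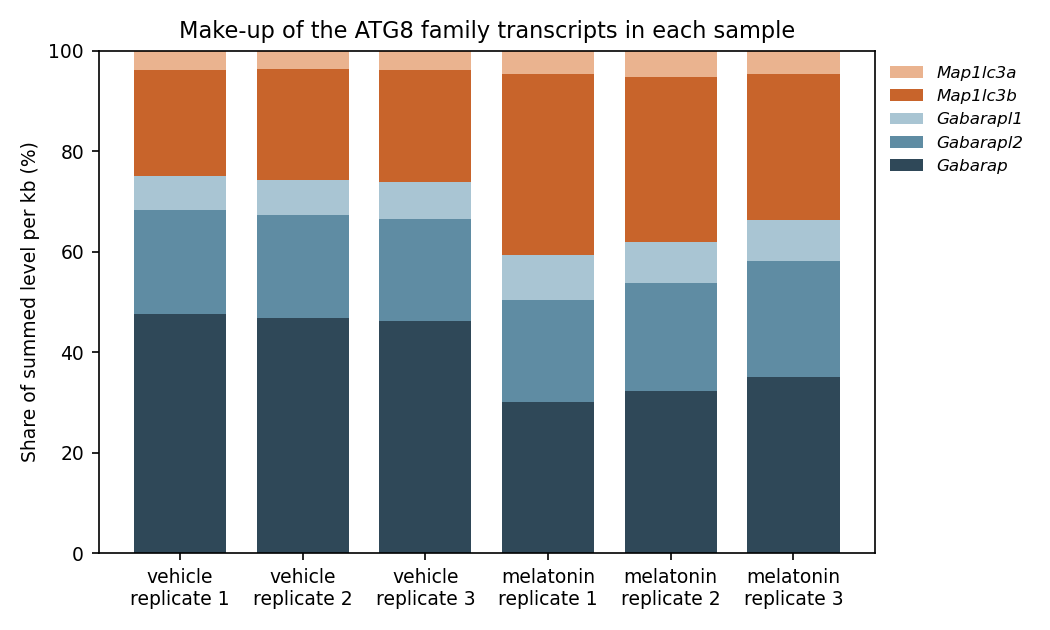
Share (%) of each of the 5 ATG8 genes in their summed normalized count per kilobase of transcript, for each vehicle and melatonin sample. The share of *Map1lc3b* is between 21.1% and 22.4% in the vehicle samples and between 29.0% and 36.1% in the melatonin samples, and that of *Gabarap* is smaller in every melatonin sample than in any vehicle sample.

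*Pink1*, the kinase that accumulates on damaged mitochondria, lies at chr4:138039346-138053618 on the minus strand (ENSMUSG00000028756). It had 1181, 1213 and 1331 normalized counts in vehicle and 4692, 3121 and 2824 with melatonin. Every melatonin sample was far above the highest vehicle sample, and replicate 1 was the highest. This gave a log2 fold change of 1.48 with a standard error of 0.169 (limma adjusted p = 0.00026), and it ranged from 1.26 to 1.62 when single samples were left out.

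Melatonin replicate 1 held the highest melatonin value in 6 of the 10 genes. Per kilobase of transcript, a scale on which genes can be compared, the vehicle levels were in the order *Map1lc3b* (1335 ± 10.4), *Gabarapl2* (1256 ± 50.8), *Becn1* (909.5 ± 50.8), *Atg5* (529 ± 3.52), *Gabarapl1* (432 ± 4.87), *Pink1* (331 ± 21.1), *Atg7* (266 ± 20.7), *Map1lc3a* (229.9 ± 7.45), *Ulk1* (48.9 ± 15.4) and *Wipi1* (14.0 ± 0.739), as mean ± SD over 3 samples. No neighbours in this order overlapped in their values. The order is for the transcript lengths used here, and that of the 10 with other lengths is not given. Ensembl canonical lengths reversed the order in vehicle of *Map1lc3b* and *Gabarap*, the latter not one of the 10. With melatonin, *Pink1* moved from place 6 to place 4, at 945 ± 268 per kilobase, where its values overlapped those of *Becn1* (1133 ± 102) above it. *Atg5* (699.6 ± 6.08) and *Gabarapl1* (621 ± 85.6) also overlapped with melatonin. *Map1lc3a* (354 ± 13.8) came to stand above *Atg7* (279 ± 56.9), and the ends of the order, *Map1lc3b* (2417 ± 385) and *Wipi1* (22.2 ± 4.04), were the same in both groups.

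The rest of the pathway was taken from 10 lists by role that together hold 82 other genes, of which 80 were tested. Of these, 43 were higher and 7 lower with melatonin, and 30 did not pass the limma test. That is 53.8% higher, beside 24.5% of all genes tested, and their median log2 fold change was 0.38. The initiation complex was the most uniform: all 4 of its other genes rose, with a median of 0.84, led by *Rb1cc1*, the scaffold FIP200, which went from 640.4, 752 and 675 in vehicle to 1434, 1442 and 1284 with melatonin (log2 fold change 1.01, limma adjusted p = 0.000117). The other 3, named after their values were seen, were *Ulk2*, a second ULK kinase (log2 fold change 1.00), and the regulatory subunits *Atg101* (0.68) and *Atg13* (0.57). In the class III kinase complex 3 of 7 rose and none fell. *Atg14*, the subunit that directs the complex to autophagy, had the largest rise there (log2 fold change 0.94, limma adjusted p = 0.00335). Of the effectors and membrane suppliers 5 of 7 rose, most of all *Atg9a*, a lipid scramblase carried on vesicles to the growing membrane, from 797, 730.2 and 717 to 1685, 1283 and 1241 (log2 fold change 0.89).

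**Figure D4:**
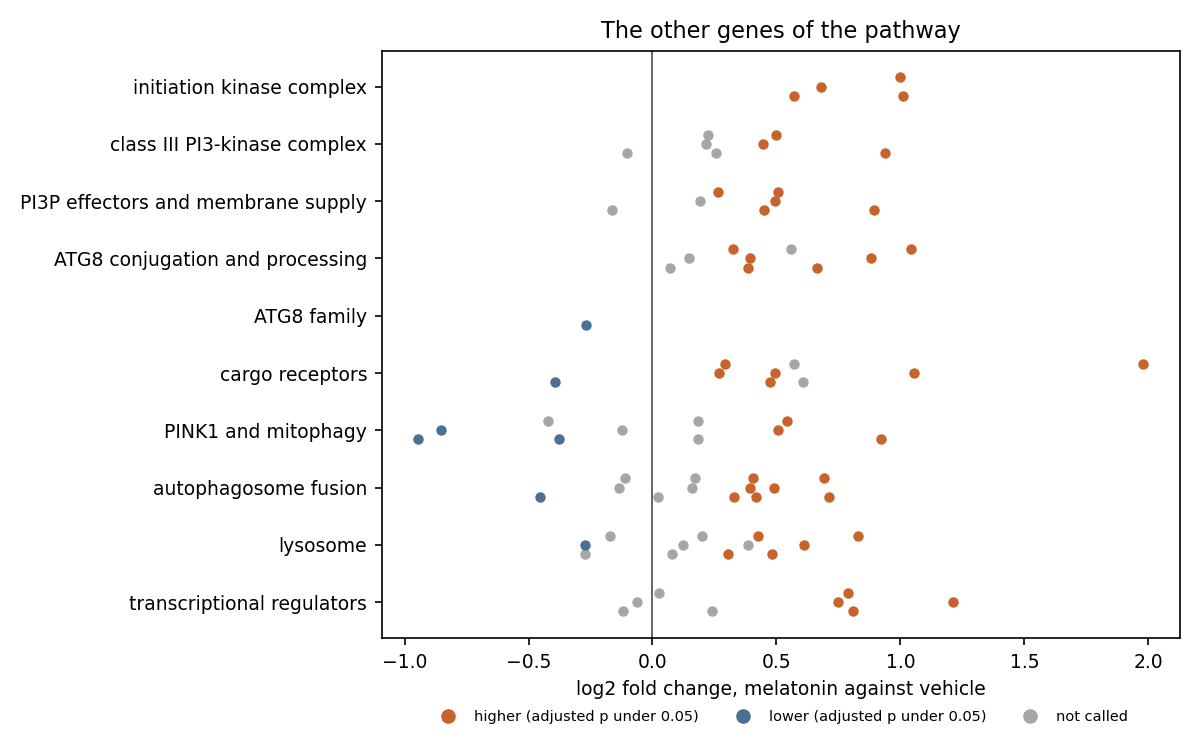
Change on the log2 scale, melatonin against vehicle, of the 80 other tested genes of the pathway, one point per gene, by list. Orange points are higher, blue lower and grey not called by limma at an adjusted p under 0.05; the initiation complex is orange throughout, and the mitophagy list holds 3 of the 7 blue points.

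In the conjugation list 6 of 9 rose and none fell. For this list and the next, the shares of all genes tested were 24.5% higher and 24.7% lower. *Atg12*, the partner to which ATG5 is joined, rose from 865, 819 and 834 to 1918, 1644 and 1645, a log2 fold change of 1.04 (limma adjusted p = 7.68e-05). The 95% interval of *Atg12* began at 0.84, above the end of that of *Atg5* at 0.57. Of the cargo receptors, which link what is to be degraded to ATG8 proteins, 6 of 9 rose and 1 fell. *Calcoco1*, a receptor for pieces of endoplasmic reticulum, changed most of all pathway genes, from 129, 134 and 148 to 785, 482 and 421 (log2 fold change 1.98, limma adjusted p = 0.000218). *Retreg1*, a receptor of the same organelle, fell from 771, 724 and 677 to 491, 523 and 649 (log2 fold change −0.39, limma adjusted p = 0.027), a call that was lost without any of vehicle replicates 1 and 2 or melatonin replicates 1 and 2, at adjusted p between 0.0537 and 0.0941. *Sqstm1*, the gene of p62, had the highest counts of the receptors and a small rise, from 7907, 8219 and 8224 to 10481, 9563 and 9344 (log2 fold change 0.27, limma adjusted p = 0.0167), which was lost without vehicle replicate 1 (0.0761) or vehicle replicate 2 (0.0558) and, at 0.17, after correction for transcript length (0.0655).

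In the mitophagy list 3 of 10 tested genes rose, 3 fell and 4 did not pass, with a median log2 fold change of 0.03, which is close to the 24.5% higher and 24.7% lower of all genes tested. Both genes of the BNIP3 kind, receptors that sit in the outer mitochondrial membrane and bind ATG8 proteins directly, rose. *Bnip3l*, the gene of NIX, went from 1218, 1255 and 1145 to 2318, 2329.6 and 2209.6 (log2 fold change 0.92, limma adjusted p = 6.74e-05). *Bnip3* went from 1633, 1769 and 1462 to 2117, 2655 and 2324 (log2 fold change 0.54, limma adjusted p = 0.00353). The groups were apart in both, and the remaining gene that rose, named after its values were seen, was *Tbk1*, a kinase of cargo receptors (log2 fold change 0.51). *Phb2*, a prohibitin of the inner membrane that also serves as a mitophagy receptor, fell from 4736, 4727 and 4805 to 2026, 2692 and 2757 (log2 fold change −0.95, limma adjusted p = 0.000348). The other 2 that fell, named after their values were seen, were *Fkbp8* (log2 fold change −0.85), an outer membrane protein that restrains cell death and can also bind ATG8 proteins, and *Tomm7* (log2 fold change −0.38), a small subunit of the pore through which proteins enter mitochondria, whose call was lost without vehicle replicate 1 (adjusted p = 0.0608) or melatonin replicate 2 (0.0502).

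Of the genes for fusion of the autophagosome with the lysosome, 7 of 13 rose and 1 fell. The shares of all genes tested were 24.5% higher and 24.7% lower. *Tecpr1*, a protein that tethers autophagosomes to lysosomes, had the largest rise, from 1456, 1442 and 1437 to 2955, 2251 and 1996 (log2 fold change 0.71, limma adjusted p = 0.00251). *Epg5*, also a tether, had the fall, with a log2 fold change of −0.45 (limma adjusted p = 0.032) that was lost without vehicle replicate 2, vehicle replicate 3 or melatonin replicate 2, at adjusted p between 0.094 and 0.11. Of the lysosomal genes 5 of 12 rose and 1 fell, beside the same 24.5% and 24.7% of all genes tested. *Lamp1*, a main protein of the lysosomal membrane, rose from 2697, 4947 and 5838 to 9004, 7469 and 6483 (log2 fold change 0.83, limma adjusted p = 0.0243). Vehicle replicate 1 was far below the other vehicle samples, and without it the log2 fold change was 0.50 (adjusted p = 0.0298), while the call was lost without melatonin replicate 1 (0.0629) or melatonin replicate 2 (0.062). *Gaa*, the lysosomal enzyme that breaks down glycogen, fell by 0.27 on the log2 scale (limma adjusted p = 0.0294), which did not hold without vehicle replicate 1, vehicle replicate 3 or melatonin replicate 2, at adjusted p between 0.0777 and 0.114, nor under scaling to the same total (0.0577).

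Among 8 tested transcriptional regulators of the pathway 4 rose and none fell, beside 24.5% higher and 24.7% lower of all genes tested. *Nfe2l2*, the gene of NRF2, an antioxidant regulator that also acts on *Sqstm1*, rose from 916, 1006 and 922 to 2637, 2126 and 1881 (limma adjusted p = 0.000155). *Tfeb*, the master regulator of lysosomal genes, had 381, 417 and 454 in vehicle and 595, 461 and 433 with melatonin. Its groups overlapped, and the log2 fold change of 0.24, with a 95% interval of −0.08 to 0.56, did not pass (limma adjusted p = 0.186). The other 3 that rose, named after their values were seen, were *Tfe3*, a relative of TFEB (0.75 on the log2 scale), *Zkscan3*, a repressor of autophagy genes (0.79), and *Foxo1* (0.81). *Tfe3* lies on chromosome X, as do *Wdr45*, *Atg4a* and *Lamp2* of the other lists, also called higher, and *Fundc1*, not called. The part in these of the difference between libraries in Y-linked transcripts was not tested. *Foxo1* was low in vehicle replicate 1, and without that sample its log2 fold change was 0.50 (limma adjusted p = 0.0432), while the call was lost without vehicle replicate 2 (0.0501), melatonin replicate 1 (0.0646) or melatonin replicate 2 (0.0751).

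The promoters of 8 of the 10 genes are in the RefSeq table used here (GRCm38.p6), as 250 bases before and 50 after the start that table gives. They were searched on both strands for 3 motifs: the E-box CACGTG, which TFEB and its relatives bind, the core TGACNNNGC of the element that NRF2 binds, and GTAAACA, which FOXO factors bind. The E-box was in 2 of the 8 and in 7.15% of all 32851 promoters, and it began 14 bases before the start in *Atg5* and 132 before it in *Atg7*, where the start lies inside the gene. The NRF2 core was in 1 of the 8, *Map1lc3b*, beginning 4 bases after the start, and in 12.4% of all promoters. The FOXO motif was in none of the 8 and in 3.65% of all. The stretches around the E-boxes (in capitals), from the plus strand, are shown because they lie at the conjugation genes, of which *Atg5* was called higher and *Atg7* was not called:
Atg5, chr10:44268310-44268338: gggcggagcgcttgcCACGTGgtcttggt
Atg7, chr6:114670949-114670988: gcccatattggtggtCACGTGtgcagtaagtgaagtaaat

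A motif match describes these letters only, and binding was not measured in these samples.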

How the data were processed

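Bulk RNA from 3 melatonin and 3 vehicle samples was sequenced on an Illumina NextSeq system. Per the study's methods, the authors trimmed reads in Partek Flow 12.9.0, aligned them with STAR 2.7.8a (mm39) and shared them among the genes of Gencode M33 by expectation-maximization. The methods state that genes under 10 counts in all samples were removed. The deposited values still include such genes, for example *Eomes*, with at most 5.60 normalized counts in a sample. The authors divided the counts by DESeq2 median ratio size factors. The deposited signal is thus an estimated count over a size factor. At a tolerance of 0.01, 64.7% of values were whole multiples of 1 read, so the main calls used no count test. A fit with voom on estimated counts was run as an alternative only.

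Here, log2 of the value plus 1 was tested with limma 3.58.1 (R 4.3.3, eBayes with trend, treatment as the only term) on genes reaching 10 in at least 1 sample. On simulated data of 3 against 3 samples it called 99 of 100 genes changed by 1 on the log2 scale, 57 of 100 changed by 0.5 and 8 of 13614 unchanged. The simulation gave all genes the same relative spread beyond counting noise, equal in both groups, and changed only a small part of the genes. In these data the melatonin libraries spread more than the vehicle libraries and many more genes were called, so these figures need not hold for them. Names, positions and lengths came from Gencode M39 (16334 of 16381 named), lengths from a principal isoform. The genes, lists and tests were chosen with earlier results of these data known. Named were all 10 genes, all ATG8 genes, *Sqstm1*, *Bnip3*, *Bnip3l* and *Tfeb*, the 3 genes most like the member that changed most, and in each list the largest called rise and fall with a mean of at least 100 and no overlap. A gene withheld for evaluation is not reported here. Markers of B cells, granulocytes and mast cells, and epithelium and stroma were also summed: 289 to 322, 18.7 to 85.9 and 1994 to 3243 in vehicle, against 131 to 162, 0.934 to 36.2 (an overlap) and 1417 to 1570 with melatonin. Within groups, the chi-square per degree of freedom between libraries was 6.36 to 37.3, above counting noise, and no library was a copy of another. Tables and figures used Python 3.11.15, pandas 2.3.3, numpy 2.4.6, scipy 1.17.1 and matplotlib 3.10.9.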

Additional observations from a re-analysis of the deposited data

How the results depend on the processing

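The fit was repeated with pseudocounts of 0.1 and 10, without the filter, with a mean of at least 100, scaled to the same total or upper quartile, quantile normalized, without the trend, with sample weights, with voom on estimated counts, corrected for transcript length or GC content, with each sample left out, at an adjusted p under 0.01 and, added after seeing the data, in the 4 libraries with Y-linked transcripts, for values only. The count of the 10 genes called higher stayed between 6 and 9 and none was called lower in any tested alternative. Both call and direction were kept throughout by 6 of the genes and by 18 of 26 other named pathway genes. The 18 include *Tfeb*, which was never called. *Atg7* was never called either, but is not among the 6, since its direction turned. At an adjusted p under 0.01, *Gabarapl2* and *Becn1* were no longer called. *Becn1* was also lost without the trend (adjusted p = 0.0566) and after correction for length (0.0821, at a log2 fold change of 0.18) or GC content (0.0555). Other calls were lost without the trend in *Gabarap* (0.079), *Retreg1* (0.0601), *Lamp1* (0.0816), *Gaa* (0.0607) and *Foxo1* (0.0822), after length correction in *Gabarap* (0.0698) and *Tomm7* (0.0943, at −0.19), after quantile normalization (0.151) or scaling to the same total (0.0563) in *Gabarap*, and after GC correction in *Gaa* (0.066). *Wipi1* was called after quantile normalization (0.0165), without the trend (0.0207) and after GC correction (0.0443). The log2 fold change of *Atg7* was −0.0129 with sample weights and −0.0707 after length correction, and between −0.11 and 0.18 with single samples left out. The 7 other pathway genes called lower became 4 without the trend, 2 at an adjusted p under 0.01 and between 2 and 8 with single samples left out: 3 without vehicle replicate 1, 4 without vehicle replicate 3 and 2 without melatonin replicate 2. The change in share of *Map1lc3a* was 0.508 percentage points without length correction and 0.428 with Ensembl canonical transcript lengths, also added later, which gave 0.191 for *Gabarapl1* and −1.10 for *Gabarapl2*. In the 4 libraries with Y-linked transcripts these were 1.92 for *Gabarapl1* and −0.341 for *Gabarapl2*. The cause of these shifts was not tested.

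With the replicate number as a block, 8 of the 10 genes were higher, 39 other pathway genes were higher and 4 lower, with *Gabarap*, *Retreg1*, *Epg5* and *Foxo1* lost at adjusted p of 0.0568, 0.0576, 0.0552 and 0.0512. Samples of the same number did not deviate together (correlations of −0.05, 0.01 and −0.05), so these values showed no pairing by number. With so few samples in each group they cannot settle whether the samples were paired.

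*Wipi1* had the lowest depth of the 10 genes, with 26 estimated counts in its lowest sample. Single genes cannot pass an exact permutation test at 3 against 3.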
